A study of Rattus norvegicus with 48 samples.

Results

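Cytosines of rat sperm DNA that the authors listed as differentially methylated were mostly isolated, but some lay in short, crowded stretches, and these stretches are described here. The authors' 6 lists, hyper- and hypomethylated cytosines for each of F1, F2 and F3, were pooled. A cytosine was counted as distinct by its chromosome, position and strand, and neighbours at most 1000 bp apart were joined into a locus. Loci with 5 or more distinct cytosines, called dense loci below, numbered 69 of 2716 loci (2.54%) and held 584 of 3998 distinct cytosines (14.6%). Another 1360 cytosines lay in 593 loci of 2 to 4, and 2054 stood alone. The members were chosen by the listing itself, that is, by the authors' methylation differences and q-values, so their number, crowding, direction and recurrence are given as descriptions without a test.

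Epididymal sperm of Sprague-Dawley rats killed at 90 days of age was profiled by reduced representation bisulfite sequencing, a measure of DNA methylation at single cytosines. Founder females (F0), 5 weeks old at the start, were gavaged with corn oil as the control or with the POPs Arctic mixture, a blend of persistent organic pollutants that the design text calls organochlorines, at 500 µg per kg body weight. Dosing went on through mating until parturition, and the males whose sperm was sequenced descend from these founders. The labels describe 48 samples, 6 control and 6 exposed in each of 4 labelled generations. The lists are named for F1, F2 and F3, while the 36 samples whose labels cite them carry the generation numbers 2, 3 and 4, so the names of the lists are used throughout and the lists were not matched to samples. Each list holds the difference between 2 groups in percentage points of methylation. Values of single animals, coverage and the number of cytosines tested were not analysed here, and a cytosine outside the lists may have missed the authors' thresholds or may not have been read, which cannot be told apart. The words hyper- and hypomethylated follow the names of the lists, and the order of subtraction between exposed and control is not given in the sources used here. Markers of sperm or of other cells cannot be checked in lists of positions.

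In mammals most DNA methylation is on cytosines followed by guanine (CpG). Because the sequence reads the same on both strands, every CpG carries 1 cytosine on the plus strand and 1 on the minus strand at the next base, and maintenance methylation copies the mark between them when DNA is replicated. Bisulfite turns unmethylated cytosines into uracil and leaves methylated ones, and each strand is read separately. Reduced representation libraries are made from DNA cut with a restriction enzyme, so reads pile up on fragments in CpG-rich sequence, and several CpGs of a fragment can be read together. Sperm DNA is highly methylated outside CpG islands. Methylation is largely erased and laid down again in the germ line and in the early embryo, with known exceptions at imprinted loci and some repeats. The sequences of the dense loci are not printed, because no genome of the build of the lists (Rnor_5.0) was used here. For the same reason positions are given without genes, exons or other annotation.

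Most dense loci were short. They held from 5 to 39 cytosines with a median of 7, and 20 loci held exactly 5, 13 held 6, 13 held 7 and 7 held 8. The 16 loci with 10 or more cytosines together had 259 of them, 44.3% of all members. From the first to the last cytosine the loci spanned 29 to 1405 bp with a median of 127 bp, and 64 of 69 spanned at most 250 bp, although the rule would have allowed gaps of 1000 bp. The median locus had 5.65 listed cytosines per 100 bp. The lowest density was 0.925 per 100 bp at chr16:8599531-8600935, the longest locus, and the highest was 17.2 per 100 bp at chr16:11568922-11568950, the shortest, where 5 plus-strand cytosines were hypomethylated in F3. Size and length did not always go together: the 22 cytosines of chr10:43465411-43465582 fitted in 172 bp, while the 7 of chr15:32215470-32215984 were spread over 515 bp.

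**Figure D1:**
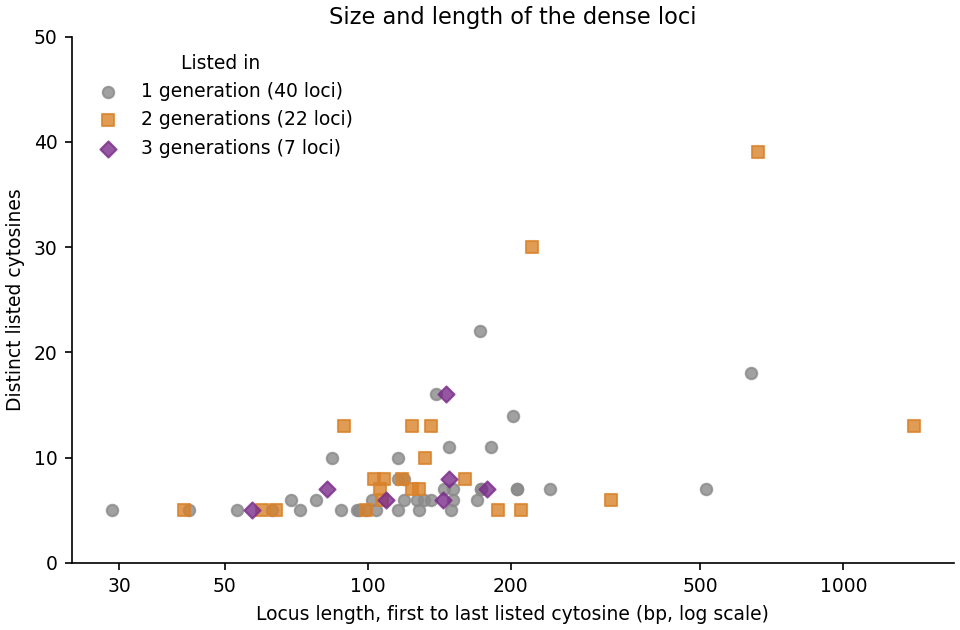
Each point is 1 of the 69 dense loci; the horizontal axis is its length in bp on a log scale and the vertical axis its number of distinct listed cytosines, with marker shape and colour for the number of generations whose lists name it. Most loci sit between 40 and 250 bp with fewer than 10 cytosines, and the 5 loci over 250 bp include both the largest (39 cytosines) and a locus with 6.

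Between neighbouring cytosines of a locus there were 515 distances. The median was 10 bp. Of these distances, 126 (24.5%) were 1 bp, and in 119 of them the plus-strand cytosine of a CpG was followed by the minus-strand cytosine of the same CpG. The other 1-bp distances joined a minus-strand cytosine to the plus-strand cytosine of the next CpG. No 2 neighbours on the same strand were on adjacent bases. Leaving out the 1-bp steps, the median distance was 16 bp, 328 distances were between 2 and 50 bp, 48 between 51 and 100 bp and 13 above 100 bp. Counted as CpGs and not as single cytosines, the members covered 465 CpG positions, from 3 to 32 per locus with a median of 5.

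At the lower edge of the definition, the 20 loci with 5 cytosines had a median length of 91.5 bp, and their median absolute difference in the authors' deposited tables was 24.5 points. The 46 loci with 4 cytosines, which were left out, had a median length of 100 bp and a median absolute difference of 27.6 points in the authors' deposited tables. Of the loci with 5 cytosines, 35% were listed in 2 or more generations and 85% had one direction throughout, against 63.0% and 73.9% of the loci with 4. Both sets overlapped in length, from 29 to 210 bp with 5 cytosines and from 13 to 1026 bp with 4.

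Dense loci were found on 18 of the 20 chromosomes with listed cytosines. Chromosomes 6 and 16 had the most, 7 each. Each thus held 10.1% of the dense loci, beside 6.59% and 4.05% of all loci. Those on chromosome 6 held 85 cytosines, 28.0% of all listed cytosines of that chromosome. This share was 26.4% on chromosome 12, 26.2% on chromosome 16 and 26.1% on chromosome 19. Chromosomes 11 and 18, with 108 and 84 listed cytosines in 82 and 65 loci, had no dense locus. Nothing is read from these counts, which are small. Dense loci were rarely close together: 3 neighbouring pairs lay within 100 kb and 7 within 1 Mb. The closest pair was on chromosome 2, where 1996 bp separated chr2:262515198-262515522 from chr2:262517518-262517626, and both were hypermethylated in F1. On chromosome 16, chr16:72824667-72824769 was hypermethylated in F1 and F2, whereas chr16:72850435-72850562, 25666 bp further on, was hypomethylated in F2. The third pair, chr5:147683213-147683320 and chr5:147737111-147737241, 53791 bp apart, was hypomethylated in F2 at both.

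Of the members, 336 (57.5%) were on the plus strand and 248 on the minus strand, beside 52.3% on the plus strand over all listed cytosines. The largest loci weigh on this share. The plus strand held 30 of the 39 cytosines of chr12:25996483-25997144 and all 30 of chr6:144720006-144720227. Cytosines of a locus are not independent, so no uneven listing of the strands is read from it. In 17 loci every cytosine was on the plus strand (129 cytosines), in 10 every cytosine was on the minus strand (73 cytosines), and 42 loci held both strands (382 cytosines). The largest one-strand loci were chr6:144720006-144720227, with 30 plus-strand cytosines, chr19:59904546-59904747, with 14 on the plus strand, chr1:26238524-26238659, with 13 on the minus strand, and chr17:18041041-18041222, with 11 on the minus strand. Among the members, 238 (40.8%) had the other strand of their CpG in a list too, beside 46.5% of cytosines in loci of 2 to 4 and 21.8% of all listed cytosines. A lone cytosine can have no listed partner, so the last share is low by construction.

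Where both strands were listed, the edges of the locus often looked alike. Of the 42 loci with both strands, 30 began with a plus-strand cytosine whose partner was not listed, and 25 ended with a minus-strand cytosine whose partner was not listed. In 13 loci both were so and every cytosine between them was paired. These 13 loci held 120 cytosines and spanned 84 to 172 bp. The class was noticed in the data and then counted. Its largest examples were chr10:43465411-43465582, with 10 complete CpGs between a single plus-strand and a single minus-strand cytosine, and chr6:117093675-117093813, with 7 complete CpGs. The length of the fragments that were read was not analysed here.

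Hypomethylation was more frequent among the members than hypermethylation in each of the lists. In F1, 84 of 228 member entries (36.8%) were hypermethylated, beside 58.8% of all cytosines listed in F1. In F2 it was 91 of 204 (44.6%), beside 54.4% of all, and in F3 123 of 285 (43.2%), beside 46.9% of all. Nothing is read from these shares, since the lists chose the members and cytosines of a locus are not independent. In the authors' deposited tables the median absolute difference of the members was, for F1, F2 and F3 in turn, 29.8, 25.3 and 29.8 points, beside 26.0, 26.5 and 27.2 points over all listed cytosines. The largest absolute difference of a member in the authors' deposited tables was 69.3 points for F1, against 48.3 for F2 and 59.4 for F3. Over all listed cytosines it was 79.7, 83.7 and 84.9 points in turn, so the largest differences lay outside dense loci in each list. Members close to the authors' minimum of 20 points were most frequent in F2, where 46.1% were below 25 points, against 25.4% in F1 and 28.8% in F3. Over all listed cytosines these shares were 44.5%, 41.6% and 38.6% for F1, F2 and F3 in turn. Differences below 25 points were thus less frequent among the members than in the whole list in F1 and F3, and more frequent in F2. The deposited q-value was listed at 0 for 144 of the member entries in F1 (63.2%, beside 45.0% of all listed), 79 in F2 (38.7%, beside 48.8%) and 100 in F3 (35.1%, beside 36.8%), so the members were above the whole list in F1 and below it in F2 and F3.

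Within most loci the direction was uniform. All cytosines had the same direction in all lists at 61 of 69 loci (88.4%): 25 loci were hypermethylated and 36 hypomethylated. Beside this, it was 73.9% of the 46 loci with 4 cytosines, and the share over loci of every size is not given here. Directions cannot differ between generations at the 40 dense loci listed in 1 generation, and they were uniform in 22 of the other 29. Taken list by list, the loci gave 105 entries, of which 100 had one direction. For the 75 entries with 5 or more cytosines, 72 had one direction, and the range between the lowest and highest difference in the authors' deposited tables then had a median of 8.91 points and was under 10 points in 45 entries. The tightest was chr7:41522056-41522191, hypermethylated in F2, where 6 plus-strand cytosines ran from 20.4 to 22.1 points in the authors' deposited table. The widest was chr13:57960469-57960614 in F3, from -59.4 to -22.4 points in the authors' deposited table. The listing starts at 20 points, which limits the range of a locus with a small mean more than that of a locus with a large one.

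The largest dense locus was chr12:25996483-25997144, hypermethylated in F3 along 662 bp. Its 39 cytosines fell into blocks, here cut wherever neighbours were more than 100 bp apart. In the authors' deposited table for F3, the 13 cytosines of the first 90 bp averaged 27.5 points and ran from 21.4 to 34.7. After a gap of 112 bp, 26 cytosines from base 202 to base 661, counted from the first cytosine as 0, averaged 34.4 points in the authors' deposited table. From base 314 onwards all 20 listed cytosines were on the plus strand, and they averaged 36.0 points (26.5 to 41.1) in the authors' deposited table, against 27.9 over the other 19. The mean difference was thus larger in the stretch where no minus-strand cytosine was listed, but the deposited q-values were weaker there. In F3 the q-value was 0 at 7 cytosines of the locus, all before base 314. From base 314 onwards it ran from 5.7e-08 to 4.6e-04. The 1 cytosine of the locus listed in F1, at base 90, stood at 23.4 points there and at 22.5 in F3 in the authors' deposited tables.

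A second hypermethylated locus, chr12:26692239-26692480, lay 695095 bp further along the chromosome. It was listed in F3 alone, with 7 cytosines averaging 25.3 points in the authors' deposited table.

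Some other large loci ranged over less than 10 points along their length. At chr19:59904546-59904747 the 14 hypomethylated cytosines of F3 lay between -45.0 and -39.3 points in the authors' deposited table, averaging -42.0, which was the largest negative mean among dense loci with 5 or more cytosines in F3. At chr10:43465411-43465582 the 22 hypomethylated cytosines of F1 lay between -36.8 and -28.3 points in the authors' deposited table, and at chr6:117093675-117093813 the 16 hypermethylated cytosines of F1 lay between 21.9 and 31.5. Both were absent from the lists of F2 and F3. At chr17:18041041-18041222 the 11 minus-strand cytosines of F3 averaged -30.0 points (-34.6 to -25.3) in the authors' deposited table. A wider spread was seen at chr6:113575061-113575208, where 11 hypomethylated cytosines of F1 averaged -30.9 points (-39.1 to -22.3) in the authors' deposited table. At its 4 complete CpGs the plus strand was the larger each time, and the strand means were -33.0 points over 7 plus-strand and -27.2 over 4 minus-strand cytosines. The locus chr10:107349976-107350615, hypomethylated in F3, was in fact a compact block of 16 cytosines in its first 80 bp and a pair 551 bp away. The block averaged -35.3 points and the pair -25.8 points in the authors' deposited table.

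**Figure D2:**
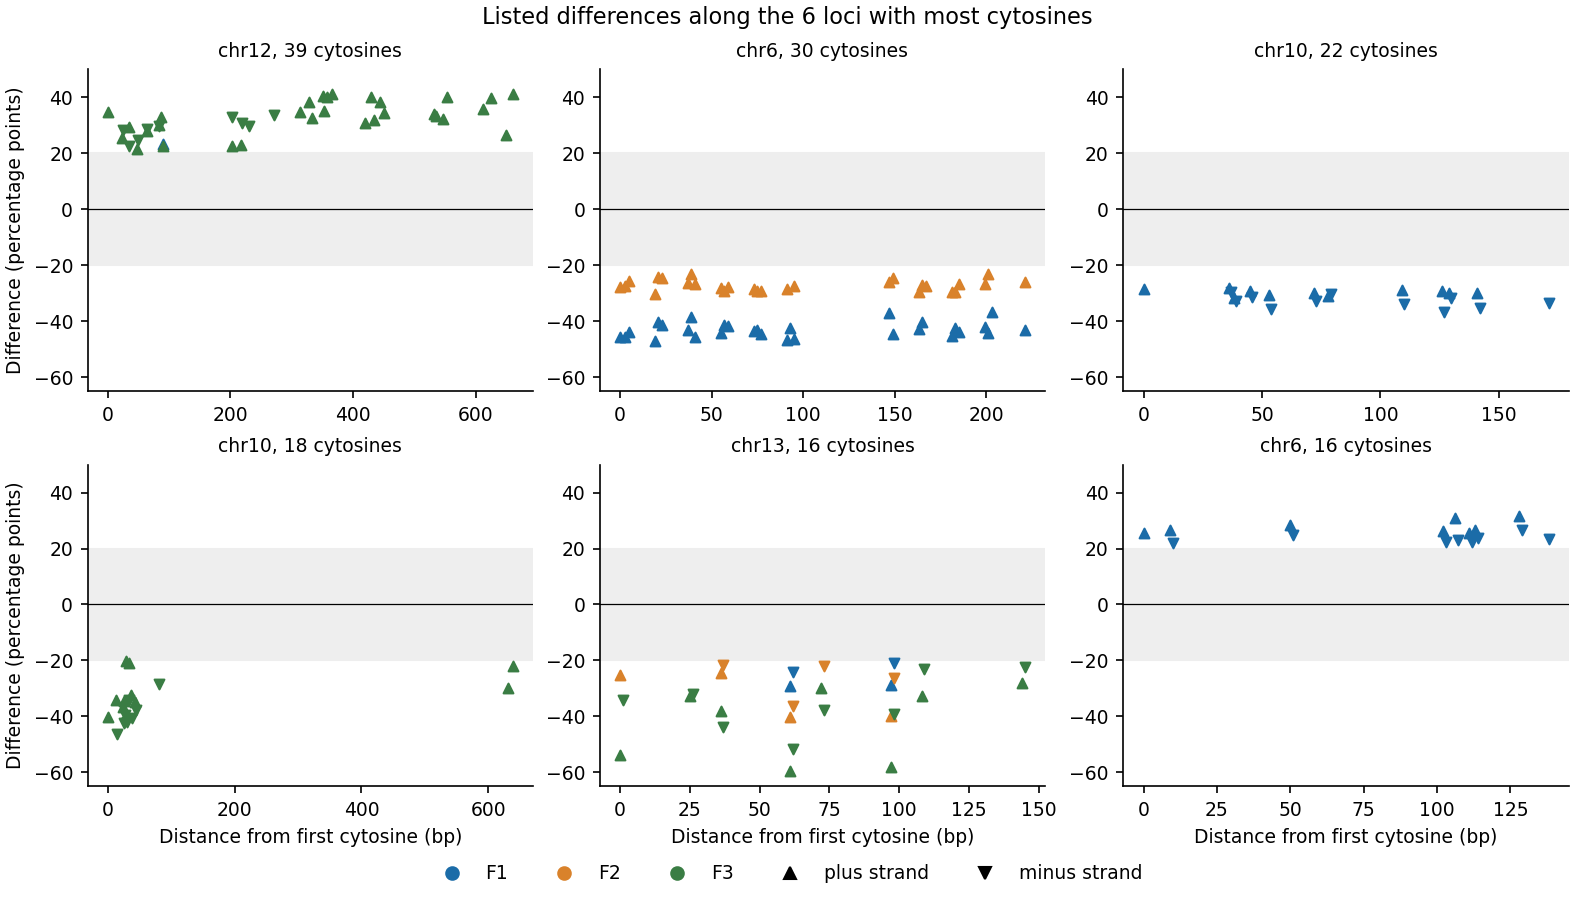
The 6 dense loci with most cytosines: the horizontal axis of each panel is the distance from the first cytosine in bp, the vertical axis the deposited difference in percentage points, colour the generation of the list and triangle direction the strand; the grey band from -20 to 20 points is where no cytosine could be listed. The 29 F1 cytosines of the chromosome 6 locus with 30 all lie below the 28 of F2, and the chromosome 12 locus averages 27.5 points in its first block and 34.4 in its second.

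The longest locus, chr16:8599531-8600935, was also the sparsest. Its 13 cytosines were hypermethylated in F2 and formed 4 blocks between bases 0 and 40, 489 and 545, 912 and 1044, and 1327 and 1404. The 4 blocks averaged 22.4, 22.4, 22.6 and 24.0 points in the authors' deposited table, and single cytosines ranged from 20.4 to 27.0. These values lie close to the listing minimum of 20 points, below which no cytosine could appear. Gaps between blocks reached 449 bp without a listed cytosine, so an even difference along the 1405 bp is not shown. At chr15:32215470-32215984, hypermethylated in F3, 4 minus-strand cytosines in the first 120 bp were followed by 3 plus-strand cytosines, and no CpG was listed on both strands. The minus-strand cytosines averaged 23.2 points and the plus-strand ones 23.4 in the authors' deposited table.

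In 4 of the 16 loci with 10 or more cytosines, positions recurred at a fixed distance, a feature noticed in the data and then measured. For each locus the commonest distance of at least 10 bp between 2 of its cytosines on the same strand was found, and the cytosines taking part in it were counted. At chr13:57960469-57960614 all 16 cytosines had a partner 36 bp away. At chr6:144720006-144720227 it was 29 of 30 at 18 bp, at chr1:26238524-26238659 12 of 13 at 16 bp, and at chr19:59904546-59904747 9 of 14 at 29 bp. In the remaining 12 loci the share ran from 25.6% to 54.5%. These 4 loci were hypomethylated in every list that named them, and so were 36 of all 69 dense loci, these 4 included. The 4 were set apart after the data were seen and smaller loci were not ranked, so no link with direction is read. Of the 4, all but the locus on chromosome 13 were listed on 1 strand only. The chromosome 6 locus consisted mostly of groups of 3 cytosines, each group 18 bp from the next, with 1 break. Whether these loci lie in repeated sequence, and how reads were placed there, was not tested.

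**Figure D3:**
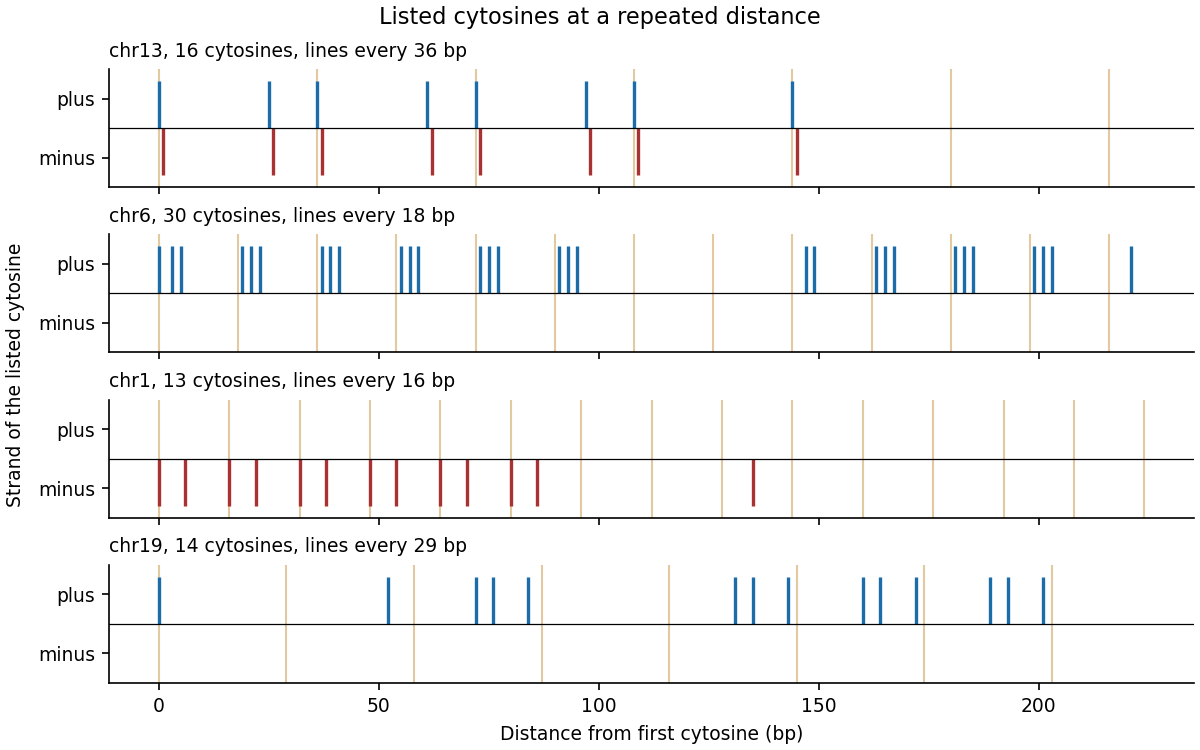
Listed cytosines of the 4 loci with the largest share at 1 repeated distance, among the 16 loci with 10 or more cytosines. The horizontal axis is the distance from the first cytosine in bp. Bars above the line are on the plus strand and bars below it on the minus strand. The pale lines are a ruler at the repeated distance starting at the first cytosine. All 16 cytosines on chromosome 13 have another on the same strand 36 bp away, as do 29 of the 30 on chromosome 6 at 18 bp, 12 of the 13 on chromosome 1 at 16 bp and 9 of the 14 on chromosome 19 at 29 bp.

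Of the 69 dense loci, 40 were named by the lists of 1 generation, 22 by those of 2 and 7 by those of all 3, so 29 (42.0%) recurred. F1 alone named 11, F2 alone 10 and F3 alone 19, while F1 and F2 together named 10, F1 and F3 named 8, and F2 and F3 named 4. Recurrence was not particular to dense loci: 63.0% of the 46 loci with 4 cytosines, which were left out, recurred. The share over loci of every size is not given here. Single cytosines of dense loci recurred less than the loci: 123 of 584 (21.1%) were in 2 or more lists. The share was 24.8% in loci of 2 to 4, 16.9% for cytosines that stood alone and 20.2% over all listed cytosines. A locus gathers several cytosines and so has more chances to recur than 1 cytosine, and the loci were joined over all lists to begin with. In 15 of the 29 recurrent loci at least 1 of the lists held only 1 or 2 of the cytosines. In 4 recurrent loci every cytosine was in at least 2 lists. One direction held in 22 of the 29: 10 loci named by 2 or 3 generations were hypermethylated and 12 hypomethylated.

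**Figure D4:**
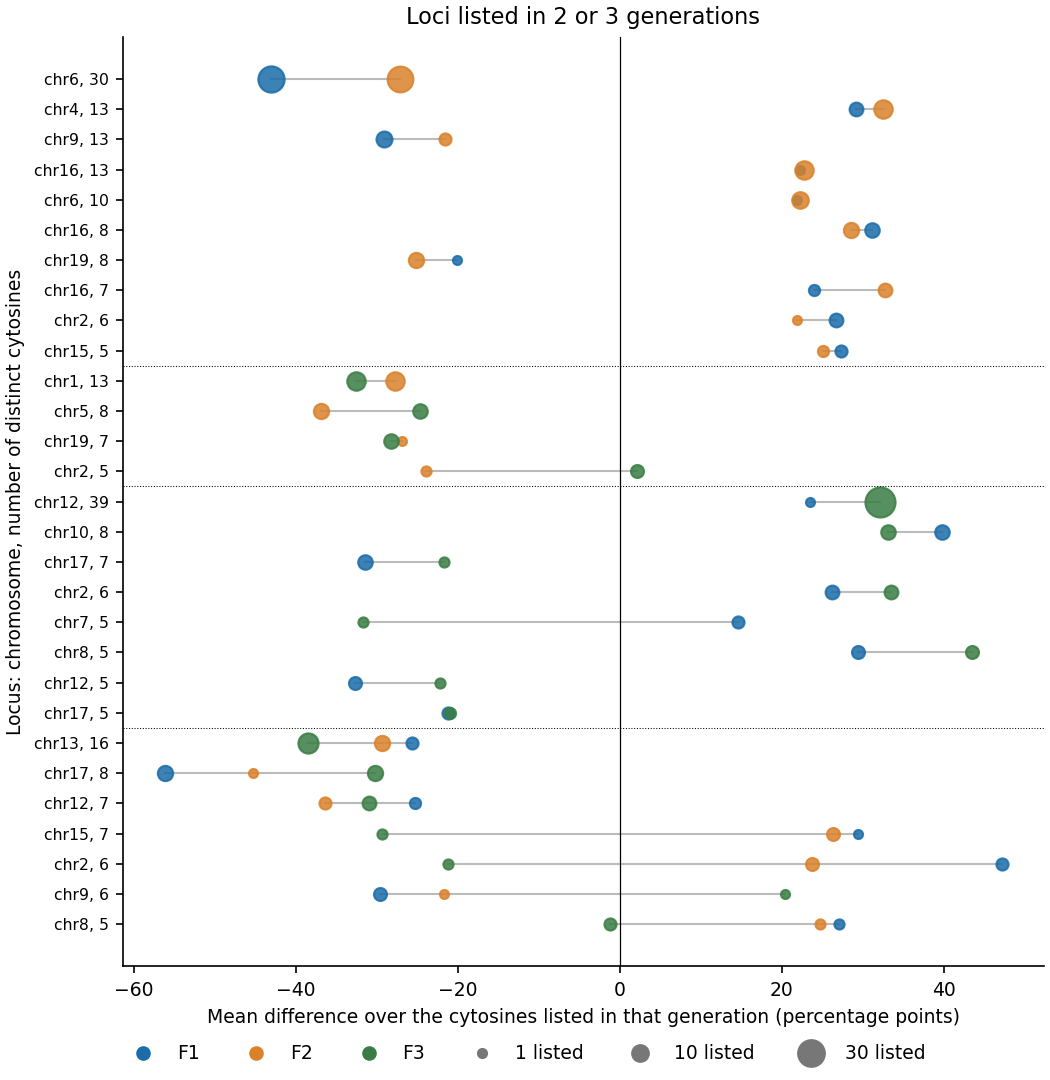
The 29 dense loci named by the lists of 2 or 3 generations, each row 1 locus with its chromosome and number of cytosines; the horizontal axis is the mean difference in percentage points over the cytosines listed in that generation, colour is the generation, and circle area grows with the number of cytosines behind the mean. Most rows stay on one side of 0, and 7 hold both directions, so that some of their means fall near 0 or on opposite sides.

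Cytosines listed in 2 generations allow the sizes to be set side by side at the same positions. F1 and F2 shared 61 member cytosines in 15 loci, and all 61 had the same direction. F1 and F3 shared 44 in 14 loci, 41 of them in the same direction, and F2 and F3 shared 38 in 9 loci, 36 in the same direction. The absolute difference was larger in F1 than in F2 at 43 of 61, larger in F1 than in F3 at 22 of 44, and larger in F3 than in F2 at 24 of 38. These counts are led by a few loci, in each of which most or all shared cytosines had the same order, so they do not rank the generations.

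At chr6:144720006-144720227 all 27 shared cytosines had the larger absolute difference in F1, and over these 27 the authors' deposited tables averaged -43.3 points for F1 and -27.2 for F2. The values did not overlap: in the authors' deposited tables the F1 cytosines of the locus ran from -47.2 to -36.9 and those of F2 from -30.2 to -23.0. The deposited q-value was 0 at all 29 cytosines in F1 and at none of the 28 in F2. No cytosine of the locus was listed in F3.

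At chr17:91224532-91224679, hypomethylated throughout, all 8 cytosines were shared by F1 and F3 and all were larger in F1. The authors' deposited table for F1 gave -69.3 points at the first cytosine, the largest absolute difference of any member, and the table for F3 gave -35.1 there. Along the locus the values of the authors' deposited tables ran from -69.3 to -46.8 in F1 and from -35.9 to -24.2 in F3. Only the minus-strand cytosine at base 82 was listed in F2 as well, and there the authors' deposited tables gave -56.0 for F1, -45.3 for F2 and -27.5 for F3, so the F2 value lay between the others.

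The order was the other way at chr13:57960469-57960614. The 4 cytosines listed in all 3 generations were both strands of 2 CpGs, 36 bp apart. At base 61 on the plus strand the authors' deposited tables gave, in the order F1, F2 and F3, -29.1, -40.2 and -59.4 points, and at base 62 on the minus strand -24.3, -36.1 and -51.6. At base 97 on the plus strand they gave -28.7, -39.8 and -58.1, and at base 98 on the minus strand -20.8, -26.2 and -39.3. The number of listed cytosines had the same order, 4 in F1, 8 in F2 and 16 in F3. A cytosine below 20 points in an earlier generation would be missing from its list, so these 2 measures are not independent.

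Other hypomethylated loci showed each order. At chr1:26238524-26238659 all 13 cytosines were larger in F3 than in F2, but the ranges in the authors' deposited tables nearly met, -29.8 to -24.4 for F2 and -35.0 to -30.7 for F3. At chr5:147683213-147683320 all 7 shared cytosines were larger in F2, and their means in the authors' deposited tables were -38.3 points for F2 and -24.7 for F3. Over all 8 cytosines of F2 the mean was -36.9, the largest negative mean among dense loci with 5 or more cytosines in F2. At chr12:30583915-30584092, named by all 3 generations, the authors' deposited tables gave -25.2, -39.7 and -28.3 points for F1, F2 and F3 at base 25, and -28.8, -45.5 and -31.6 at base 177. At both of these F2 was the largest of the 3.

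Among hypermethylated loci, chr8:21601391-21601578 had 5 plus-strand cytosines, each listed in F1 and F3. The means in the authors' deposited tables were 29.4 points for F1 and 43.4 for F3, the largest positive mean among dense loci in F3, and all 5 were larger in F3. In both generations the last of the 5 was the lowest, and the authors' deposited tables gave 21.0 and 34.3 points there. At chr2:73074013-73074119, 5 of 6 cytosines were larger in F3, with means of 26.2 and 33.4 points in the authors' deposited tables for F1 and F3. At chr10:101048175-101048334 the authors' deposited tables averaged 39.9 points for F1 and 42.5 for F3 over the 6 shared cytosines, and 4 of 6 were larger in F3. At chr16:72824667-72824769 the 7 cytosines shared by F1 and F2 averaged 31.1 and 28.5 points in the authors' deposited tables.

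Some loci were listed in 1 generation only, or nearly so. Each one named here had a mean among the 5 largest of its direction, in the generation that listed most of its cytosines. That ranking was over dense loci with 5 or more cytosines in the generation, and not every such mean was large. At chr4:8475957-8476083, 6 cytosines were hypomethylated in F1 averaging -38.1 points (-40.9 to -31.5) in the authors' deposited table, and neither F2 nor F3 listed them. At chr14:42889047-42889162, 10 cytosines of F3 averaged -33.8 points (-38.1 to -26.7) in the authors' deposited table. On the same chromosome, chr14:16299470-16299620 had 6 hypermethylated cytosines in F3 that averaged 33.0 points (29.0 to 39.8) in the authors' deposited table. At chr19:60406112-60406230, 8 cytosines of F2 averaged 26.4 points, and at chr20:15086024-15086229, 7 cytosines of F2 averaged -27.1 in the authors' deposited table. At chr12:40631252-40631315 and chr17:82097589-82097716, F1 listed 5 and 7 hypomethylated cytosines with means of -32.8 and -31.5 points, while F3 listed 2 at each with means of -22.2 and -21.8 in the authors' deposited tables. In F3 both were thus close to the minimum of 20 points, and only minus-strand cytosines were listed.

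A CpG listed on both strands gives 2 readings of nearly the same place. In dense loci there were 131 such readings within 1 list, and the direction was the same on both strands in all 131, beside 360 of 368 outside dense loci. The absolute gap between the strands had a median of 4.94 points in the authors' deposited tables, beside 4.73 points outside dense loci, and exceeded 10 points at 24 of 131 pairs, beside 62 of 368 outside. The absolute difference was larger on the plus strand at 81 pairs and on the minus strand at 50, beside 188 and 180 outside dense loci. By list these counts were 32 and 15 in F1, 22 and 9 in F2, and 27 and 26 in F3, so F3 was nearly even. Pairs of a locus are not independent, and no general order of the strands is read from these counts. Among the 18 entries of a locus in a list with 3 or more pairs, the plus strand was larger at every pair in 10 and the minus strand at every pair in 2.

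**Figure D5:**
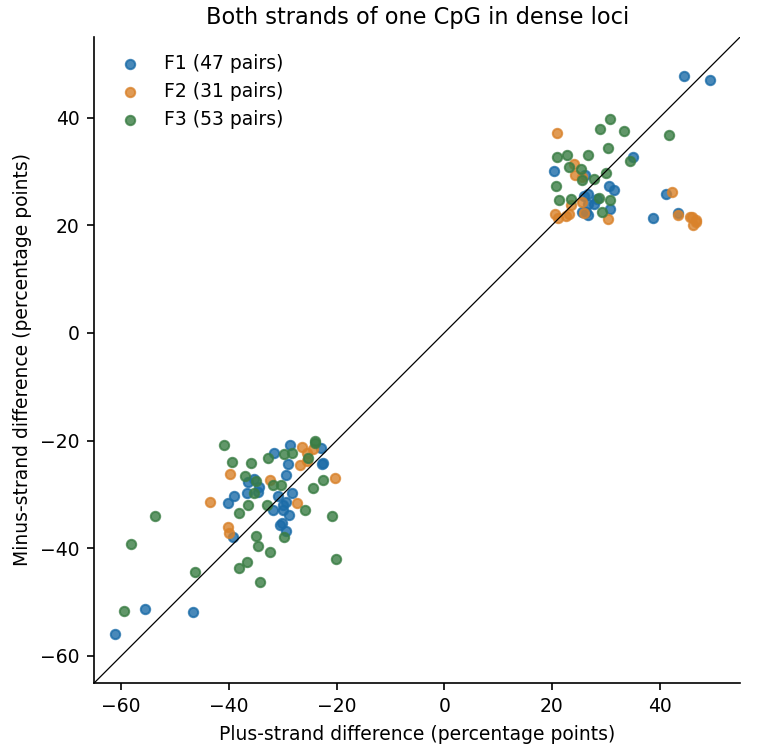
Each point is a CpG of a dense locus listed on both strands in 1 generation, with the plus-strand difference on the horizontal axis and the minus-strand difference on the vertical axis, both in percentage points, colour for the generation and the line where they are equal. All 131 points lie in the quadrants of equal direction, and the group at about 46 points on the plus strand and 21 on the minus strand is the locus on chromosome 4 in F2.

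The widest strand gap was at chr4:242710623-242710711, hypermethylated in F1 and F2. In the authors' deposited table for F2 the 6 plus-strand cytosines lay between 43.4 and 46.7 points and the 7 minus-strand cytosines between 20.1 and 21.9, with no overlap. At the 6 complete CpGs the gap ran from 21.6 to 26.1 points. F1 listed the 6 plus-strand cytosines alone, averaging 29.2 points in the authors' deposited table, and all 6 were larger in F2. With the strands averaged together the F2 mean was 32.4 points, a value that none of its 13 cytosines had.

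At chr16:72824667-72824769 in F1 the 3 plus-strand cytosines lay between 38.9 and 43.4 points and the 4 minus-strand cytosines between 21.3 and 25.7 in the authors' deposited table. In F2 the gap was smaller, with strand means of 31.9 and 25.3. The opposite order was seen at chr10:107349976-107350615 in F3, where the minus strand was larger at 7 of 7 pairs. The plus-strand absolute difference minus that of the minus strand averaged -9.84 points there in the authors' deposited table. At chr10:43465411-43465582 in F1 the minus strand was larger at 9 of 10 pairs, with an average of -3.19 points, and at chr6:117093675-117093813 in F1 the plus strand was larger at 7 of 7, with an average of 4.43.

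At 2 further loci the strands parted between or within lists. At chr9:117687691-117687814, the authors' deposited tables held 9 plus-strand cytosines for F1, averaging -29.2 points, and 4 minus-strand cytosines for F2, averaging -21.7. Although 4 of its CpGs were thus listed on both strands, none of its cytosines was listed in both generations. It was the 1 recurrent dense locus with no shared cytosine. At chr16:14737135-14737240, hypermethylated in F2, the 4 minus-strand cytosines averaged 38.7 points and the 2 plus-strand cytosines 20.8 in the authors' deposited table. Its F2 mean of 32.8 points was the largest positive mean of any dense locus in F2. Reads per strand were not analysed here, and whether depth differed between the strands was not tested.

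The 8 loci of mixed direction were of 3 kinds. In 5 loci a single list held both directions, in 2 loci the same cytosine had opposite directions in different lists, and at chr9:36059205-36059348 the lists differed at different cytosines. There F1 had 5 hypomethylated cytosines and F2 had 1, and F3 had 1 hypermethylated plus-strand cytosine at 20.4 points in the authors' deposited table. Its CpG partner on the minus strand stood at -31.4 points in F1.

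The widest range within a list was at chr2:77723991-77724200 in F3. There the authors' deposited table held 36.3 points at base 0, 30.3 and 34.4 on the plus and minus strands at bases 206 and 207, and -46.2 and -44.4 at bases 208 and 209. These were 2 directly adjacent CpGs of opposite direction, each with the same direction on both of its strands. F2 listed only the second of these CpGs, at -25.6 and -22.3 points in the authors' deposited table, in the direction it had in F3. At chr8:119692444-119692500 the change came within 57 bp on the minus strand: for F3 the authors' deposited table held 21.9 and 21.6 points at bases 10 and 12 and -24.1 at both base 52 and base 56. The first part of that locus was hypermethylated in F1 and F2 as well, at 27.8 and 25.2 points at base 10 in the authors' deposited tables.

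In the other 3 such loci a single cytosine went against its neighbours. At chr10:101048175-101048334 in F3 the cytosine at base 69 stood at -23.5 points in the authors' deposited table, between 47.5 at base 65 and 40.9 at base 73. At chr5:3596156-3596361 in F3 the cytosine at base 71 stood at -24.0, while the other 6 lay between 24.7 and 30.4 in the authors' deposited table. At chr7:22572684-22572782 in F1 the cytosine at -32.3 points had 3 hypermethylated neighbours between 27.9 and 31.4 in the authors' deposited table. F3 listed that same cytosine at -24.1 and the plus strand of its CpG at -39.5, so at this CpG the hypomethylated direction was in both lists.

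Of the 123 member cytosines in 2 or more lists, 3, in 2 loci, had opposite directions in different generations, beside 129 of the 808 such cytosines over all listed. At chr2:262517518-262517626 the authors' deposited tables gave 49.4 points for F1, 25.9 for F2 and -21.9 for F3 at base 51 of the plus strand, and 44.6, 24.9 and -20.8 at base 79. At both, the F2 value was lower than the F1 value and the F3 value had the opposite sign. The 4 cytosines of this locus in F1 averaged 47.2 points, above the largest positive mean among dense loci with 5 or more cytosines in F1, 39.8 at chr10:101048175-101048334. Its neighbour 1996 bp away, chr2:262515198-262515522, had 6 hypermethylated cytosines in F1 averaging 26.6 points and 1 in F2 at 21.9 in the authors' deposited tables, and none in F3. At chr15:45436597-45436678 the authors' deposited tables gave 29.4 points for F1 and -25.9 for F3 at base 80 of the plus strand, and -33.0 for F3 at its minus-strand partner. The 5 cytosines that F2 listed in that locus, from base 0 to base 38, were hypermethylated with a mean of 26.3 points.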

How the data were processed

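Sperm DNA was profiled by reduced representation bisulfite sequencing in 48 samples, 8 groups of 6 by the labels, and nothing in the files identifies single samples. The deposited files are 6 lists with, for each cytosine, a position, a strand, a signed score and a p-value and q-value. The score is the methylation difference between 2 groups in percentage points, calculated by the authors. The authors kept cytosines with a false discovery rate (the deposited q-value) below 1% and a difference of at least 20 points, as a description file deposited beside the lists states. The smallest listed absolute difference was 20.0 points and the largest q-value 0.0099. Tools listed in the submitters' processing notes, without what each did, are methylKit 0.9.4, bedtools 2.17, Bismark 0.14.5, CASAVA, SAMtools 1.2 and Trim Galore 0.4.0, and the rat build there is Rnor_5.0. No source used here gives coverage, so the depth of each sample is unknown and no error or interval can be attached to a listed difference.

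The lists were pooled, distinct cytosines at most 1000 bp apart were joined, and loci with 5 or more were kept. The joining was run on simulated loci set far apart, which does not test the limit of 1000 bp or close neighbours. Loci, members and lists were chosen with earlier results of these data known, and the members were selected on the same contrasts, so no test was made. Means over the cytosines of a locus describe the locus and are not averages over animals. Larger and smaller always refer to absolute differences. Named loci were those with most cytosines (12 in all, 4 per generation), with most cytosines in all 3 generations or shared by 2, with both directions or opposite directions between lists, the 4 longest, the 4 most tightly spaced, the 4 largest on 1 strand, and the 5 largest means in each direction and generation over at least 5 cytosines. This gave 36 loci. The others named were chosen after their values were seen, as were the repeated distances, the blocks, the strand gaps and the edge pattern. Alternatives changed the joining distance, the minimum number, the counting of strands, the minimum difference and q, and joined within a generation. The planned sequence context of named loci was not run, because no genome of Rnor_5.0 was used here. Tables were handled with pandas 2.3.3 and numpy 2.4.6 in Python 3.11.15, intervals came from SciPy 1.17.1, and plots were drawn with matplotlib 3.10.9.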

Additional observations from a re-analysis of the deposited data

How the results depend on the processing

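The 69 dense loci, their 584 cytosines and the shares given with them were recalculated under 10 alternatives. With at least 4 cytosines there were 115 loci with 19.2% of the listed cytosines, with at least 6 the share was 12.1%, and with at least 10 there were 16 loci with 259 cytosines (6.48%), 100% of them of one direction. Joining at 100 bp gave a share of 13.3%, and counting both strands of a CpG as 1 gave 11.6%. A minimum difference of 25 points gave 37 loci with 342 cytosines. Joining within one generation gave one direction in 96% of loci. The minimum number changes which loci are kept and leaves their content as it is, and within one generation no direction can differ between lists. The share of loci listed in at least 2 generations was 39.7% to 50.4% over the 9 alternatives that give it. Joining within one generation cannot give it. These values lay within the 95% exact Clopper-Pearson interval of the reported 42.0% (30.2% to 54.5%, counting error only). The alternatives cut the same lists anew and share many loci, so this does not show that the share is stable. No paired analysis was possible because the lists hold no values of single samples. Depth, values of single animals and cytosines below the authors' thresholds were not analysed here, which limits every count of absent cytosines.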
